A study of Rattus norvegicus with 12 samples.

Results

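Voluntary exercise was compared with a small, fixed dose of activity in the left ventricle of ageing rats, using 8 of the 12 arrays of the series. The EX arrays hold rats with access to exercise over their lives, and the PA arrays hold rats that spent 1 h in a large box on 2 days a week. Another set of rats lived in a standard cage throughout (SED), and its 4 arrays are given beside some values for orientation. All animals were female Sprague-Dawley rats from Charles River, 16 months old, and no genetic change or drug is named for any group. The members of each group were chosen by the array titles alone, which gave 4 EX and 4 PA arrays. How the EX rats exercised, and how far they ran, was not given in the sources used here.

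Each array carries RNA pooled from several hearts. The design text gives 12 animals per group and 4 animals per array, which would fill 3 arrays, while 4 are listed per group. Which animals stand behind which array is therefore unsettled, and the p-values measure only the spread between these pooled arrays. RNA was taken from ventricle as a whole, so fewer cells of a type and less RNA per cell cannot be told apart.

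The left ventricle pumps blood into the body's arteries and draws most of its energy from fatty acids, burnt in densely packed mitochondria. Repeated endurance exercise is known to enlarge the chamber without the fetal gene program that marks pressure overload, a program in which natriuretic peptides and beta myosin are raised. Exercise is also known to raise genes of mitochondrial formation and fat oxidation in skeletal muscle through the PGC-1 coactivators, while the heart, which never rests, starts from a high level of both. The comparison asks whether freely chosen exercise leaves the ventricle with other transcript levels than 2 short sessions a week do.

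Values are the authors' log2 expression levels, so a difference of 1 is a 2-fold difference, and a positive difference means a higher level in EX. A probe set, a group of short probes against 1 transcript, was tested if its mean over the 12 arrays was 4.94 or more, which kept 18626 of 31042. Where several probe sets of a gene were tested, the brightest stood for it, so that 10244 genes were compared. Groups are said not to overlap where all 4 arrays of one group lay above all 4 of the other.

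The ventricular identity of the samples was clear from their markers. The ventricular light chain gene Myl2 read 13.05 to 13.12 in EX and 13.06 to 13.12 in PA, and the ventricular transcription factor gene Irx4 read 8.24 to 8.61 and 8.28 to 8.85. Of 10 ventricular markers 9 were tested and the other one had no probe set with its symbol. The adipocyte genes Adipoq, Plin1 and Lep and the nerve gene Th were below the filter. The adipocyte gene Cfd was tested and read 6.46 to 7.56 in EX and 6.88 to 7.28 in PA, and the nerve gene Dbh read 4.71 to 5.11 and 4.91 to 5.08.

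Among the atrial markers, Myl7 was uneven within EX. Myl7, the atrial myosin light chain gene, read 10.12 in EX 1 and 10.88 in EX 3 but 4.09 in EX 2 and 4.23 in EX 4. In PA it read 7.63, 8.10, 7.88 and 6.61. EX 1 and EX 3 thus lay above every PA array for Myl7, and EX 2 and EX 4 below every one, so the group means were close (7.33 ± 3.67 and 7.56 ± 0.66, SD, n = 4). Other atrial markers varied less. Myl4 read 6.44, 6.23, 6.56 and 6.47 in EX and 6.50 to 6.88 in PA, a difference of -0.29 ± 0.11 (SE). The sarcolipin gene Sln read 6.04 to 7.52 in EX and 5.55 to 6.28 in PA, a difference of 0.71 ± 0.29 (SE). Nppa read 10.05 to 10.92 in EX and 9.83 to 10.86 in PA. Over the 13 tested genes of the atrial list, the mean level relative to the 8 arrays was 0.20, -0.28, 0.36 and -0.30 in EX 1 to EX 4, and -0.05 to 0.05 in PA. Myl7 is on this list and its wide swings enter the mean, so the list level is no separate support for unevenness.

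The 8 arrays were alike in level, with medians from 5.67 to 5.72. The controls for Gapdh, read at the 3' end less the 5' end as a sign of RNA integrity, gave 1.12 to 1.35 in EX and 0.96 to 1.22 in PA. Those for beta-actin gave 1.46 to 1.63 in EX and 1.37 to 1.49 in PA. Among the SED arrays, SED 1 stood apart. Its mean r with all other arrays was 0.9641, where the EX and PA arrays had 0.9867 to 0.989. Its Gapdh and beta-actin values, 1.56 and 1.7, were the highest of the 12 arrays. The SED means and ranges given below include SED 1. Arrays of the same group correlated with each other as closely as arrays of different groups, with a mean r of 0.9843 over 12 pairs and 0.9840 over 16 pairs. In a principal component analysis the first component held 21.2% of the variance and set EX 2 apart, and the second held 20.5% and set EX 1 apart. The difference between the group means accounted for 15% of the variance over all tested probe sets, where 1 of 7 degrees of freedom would hold 14.3%. Neither of the first components separated EX from PA.

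**Figure D1:**
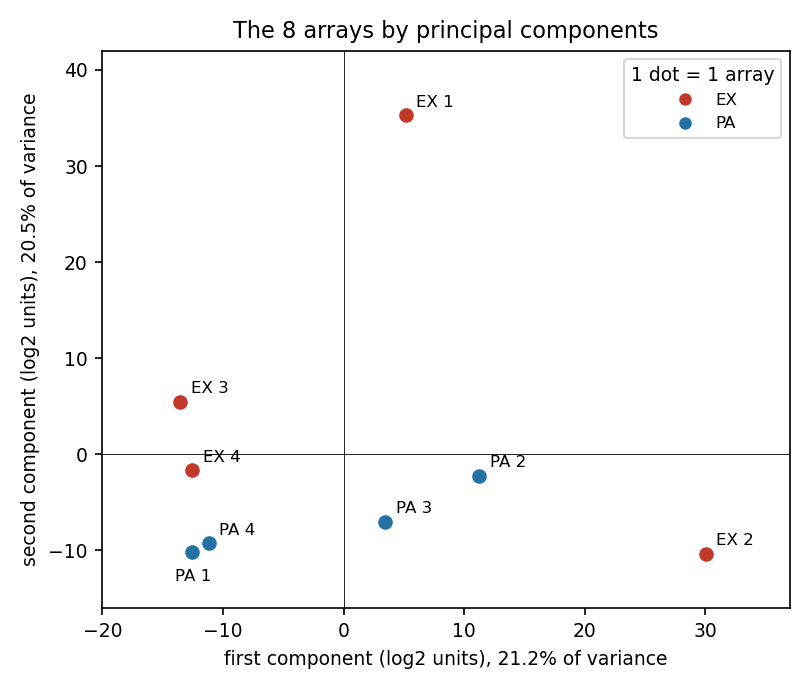
The 8 arrays by their first and second principal components over the tested probe sets (axes in log2 units, with the share of variance in percent), 1 dot per array and colours for EX and PA. EX 2 lies alone at 30.03 on the first component and EX 1 alone at 35.31 on the second, while EX 3 and EX 4 lie near PA arrays.

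No gene differed between voluntary exercise and twice-weekly activity beyond the adjusted threshold. By limma with Benjamini-Hochberg adjustment, 0 of 18626 probe sets had an adjusted p under 0.05 (0%), and the smallest adjusted p was 0.22. At an unadjusted p under 0.05 limma called 998 probe sets, 5.36% of those tested, of which 493 (2.65%) were higher and 505 (2.71%) lower in EX. On the level of genes it was 500 (4.88%), of which 191 (1.86%) were higher and 309 (3.02%) lower in EX. The groups did not overlap for 280 genes (2.73%), with EX above PA for 107 (1.04%) and below PA for 173 (1.69%).

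The intervals show how large a difference between these pooled arrays could have been missed. Like the p-values, they measure only the spread between the arrays, not that between animals. The median gene differed by 0.09 in absolute value, and 95% of genes differed by at most 0.33. The 95% interval reached 0.26 to either side of the difference for the median gene, which is 1.2-fold. For 8677 genes (84.7%) the whole interval lay within a 1.5-fold difference in either direction, and for 10059 (98.2%) within 2-fold. Measured differences were over 1.5-fold for 55 genes and over 2-fold for 5. The spread between arrays of a group had a median SD of 0.17, about the size of many of the differences.

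**Figure D2:**
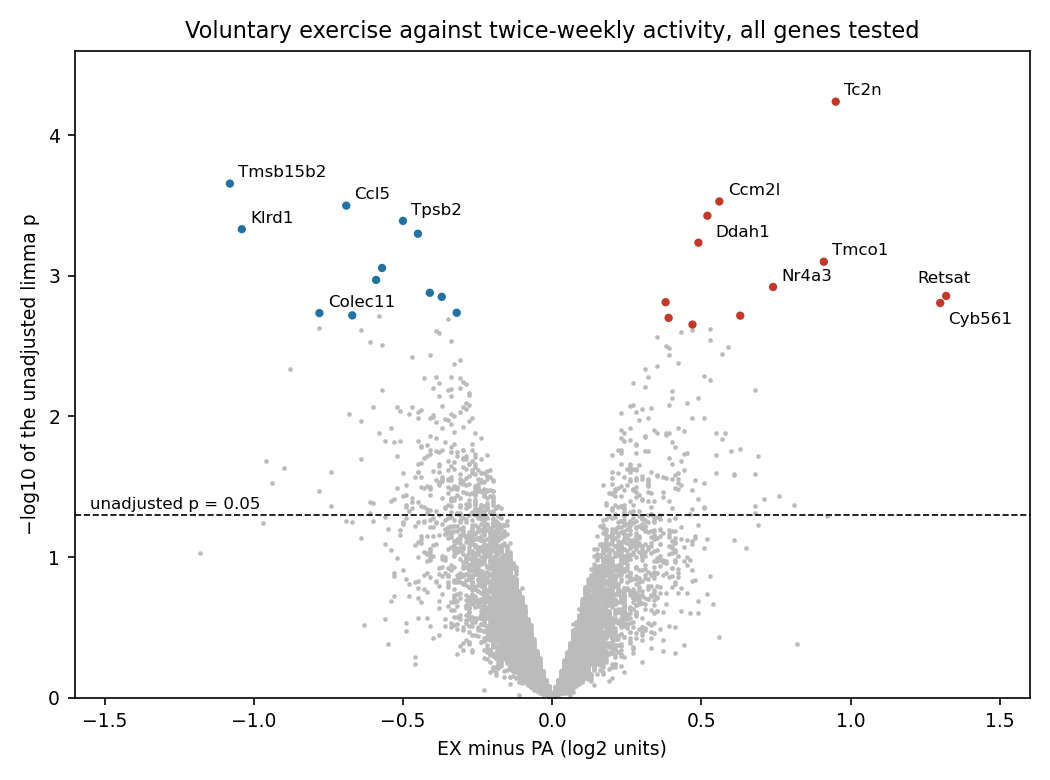
Difference of each of the 10244 genes (x axis, EX minus PA in log2 units) against the negative log10 of its unadjusted limma p (y axis). The 12 genes of smallest p in each direction are coloured, red for higher in EX and blue for higher in PA, and the dashed line marks an unadjusted p of 0.05, which 500 genes pass although none passes after adjustment.

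The genes of smallest p describe where the groups stood furthest apart relative to their spread. They were picked for that, so their separation is no evidence that they differ, and none passed the adjusted threshold. Among the 12 that were higher in EX the differences ran from 0.38 to 1.32, with adjusted p from 0.269 to 0.593 by limma. Among the 12 that were higher in PA they ran from 0.32 to 1.08, with adjusted p from 0.467 to 0.571 by limma. The groups did not overlap for any of the 24.

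Ddah1, the enzyme that breaks down the nitric oxide synthase inhibitor asymmetric dimethylarginine, read 8.18, 8.17, 8.17 and 8.17 in EX 1 to EX 4 and 7.76, 7.76, 7.68 and 7.41 in PA 1 to PA 4. The EX arrays were nearly equal and the PA arrays all lower, with a difference of 0.52 ± 0.09 (SE; adjusted p = 0.467 by limma). The SED arrays read 6.77, 7.54, 7.68 and 7.68 for it, in or below the range of PA. Ccm2l, a gene of the endothelium related to the cerebral cavernous malformation gene Ccm2, read 7.61, 7.86, 7.64 and 7.48 in EX and 6.97, 7.14, 7.16 and 7.08 in PA. Its difference was 0.56 ± 0.10 (SE; adjusted p = 0.467 by limma), and the SED arrays, at 6.94 to 7.18, spanned the range of PA.

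Tc2n, which encodes a protein with tandem C2 domains, had the smallest p of all named genes. It read 6.91, 6.97, 7.02 and 6.66 in EX and 5.68, 6.23, 6.02 and 5.84 in PA. The lowest EX array, 6.66, was above the highest PA array, 6.23, and the difference was 0.95 ± 0.13 (SE; adjusted p = 0.269 by limma). SED read 6.04, 4.92, 5.52 and 4.95, so its mean of 5.36 lay below both.

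The genes also included a calcium and a potassium channel. Tmco1, a calcium release channel of the endoplasmic reticulum, read 7.72, 8.51, 8.36 and 7.88 in EX and 7.17, 7.45, 7.21 and 6.99 in PA (difference 0.91 ± 0.18, SE). Kcnd2, which encodes the Kv4.2 subunit of the fast transient outward potassium current, read 9.38, 9.53, 9.60 and 9.41 in EX and 9.05, 9.16, 9.18 and 9.01 in PA. The channel gene's difference was 0.38 ± 0.08 (SE; adjusted p = 0.558 by limma), and a dimmer Kcnd2 probe set differed by 0.40 (unadjusted p = 0.0146 by limma). All 4 SED arrays were lower than all PA arrays for Kcnd2, at 7.71, 8.87, 8.94 and 8.54. Kcnip2, the partner subunit of the same current, had a lower mean in EX (difference -0.16 ± 0.09, SE) and overlapping groups.

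Retsat, the retinol saturase of vitamin A metabolism, had the largest difference among these genes. It read 9.73, 10.21, 9.68 and 9.60 in EX and 8.58, 9.16, 7.63 and 8.58 in PA, a difference of 1.32 ± 0.29 (SE; adjusted p = 0.544 by limma). PA 3 was lower than the other PA arrays. SED was wider still, from 7.05 to 9.72, so that a single SED array was higher than the lowest EX array. Cyb561, a membrane protein that carries electrons from ascorbate, read 6.10, 5.77, 6.59 and 5.66 in EX and 4.73, 4.40, 4.27 and 5.51 in PA. Its difference was 1.30 ± 0.29 (SE), and PA 4 came close to the lowest EX array. The PA and SED means for Cyb561, 4.73 and 4.72, were under the filter of 4.94, which the gene passed through its EX levels. The size of its difference thus rests on dim PA values.

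Nr4a3, an orphan nuclear receptor gene that responds early to exercise in skeletal muscle, read 6.88, 7.53, 7.42 and 7.15 in EX and 6.21, 6.64, 6.53 and 6.64 in PA. The difference was 0.74 ± 0.16 (SE; adjusted p = 0.544 by limma), and a dimmer Nr4a3 probe set differed by 0.36 (unadjusted p = 0.185 by limma). In caged rats the arrays read 8.01, 6.99, 7.85 and 5.91, with a mean of 7.19 close to that of EX (7.24). Ubd, which encodes the ubiquitin-like modifier FAT10 that interferon gamma induces, read 6.17, 6.09, 6.62 and 6.45 in EX and 5.87, 5.58, 5.49 and 5.88 in PA. SED had the highest Ubd mean, 7.15, with arrays from 6.00 to 8.40.

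The remaining genes of this direction were Mcm10, a DNA replication factor (0.49 ± 0.09, SE), Itfg2, a subunit of a complex that restrains mTORC1 (0.39 ± 0.09, SE), and Pxdc1 (0.47 ± 0.11, SE). Pxdc1 was not settled even in direction, since its dimmer probe set was lower in EX by -0.74 ± 0.19 (SE), and the mean of both gave -0.14. Across the 12 genes the SED mean lay nearer to PA for 10 and nearer to EX for 2, and it was below both groups for 7. The genes were picked for high EX and low PA levels, and no share over all genes stands beside these counts. The counts are thus no evidence of a rise particular to EX. The SED arrays were used for no test here.

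**Figure D3:**
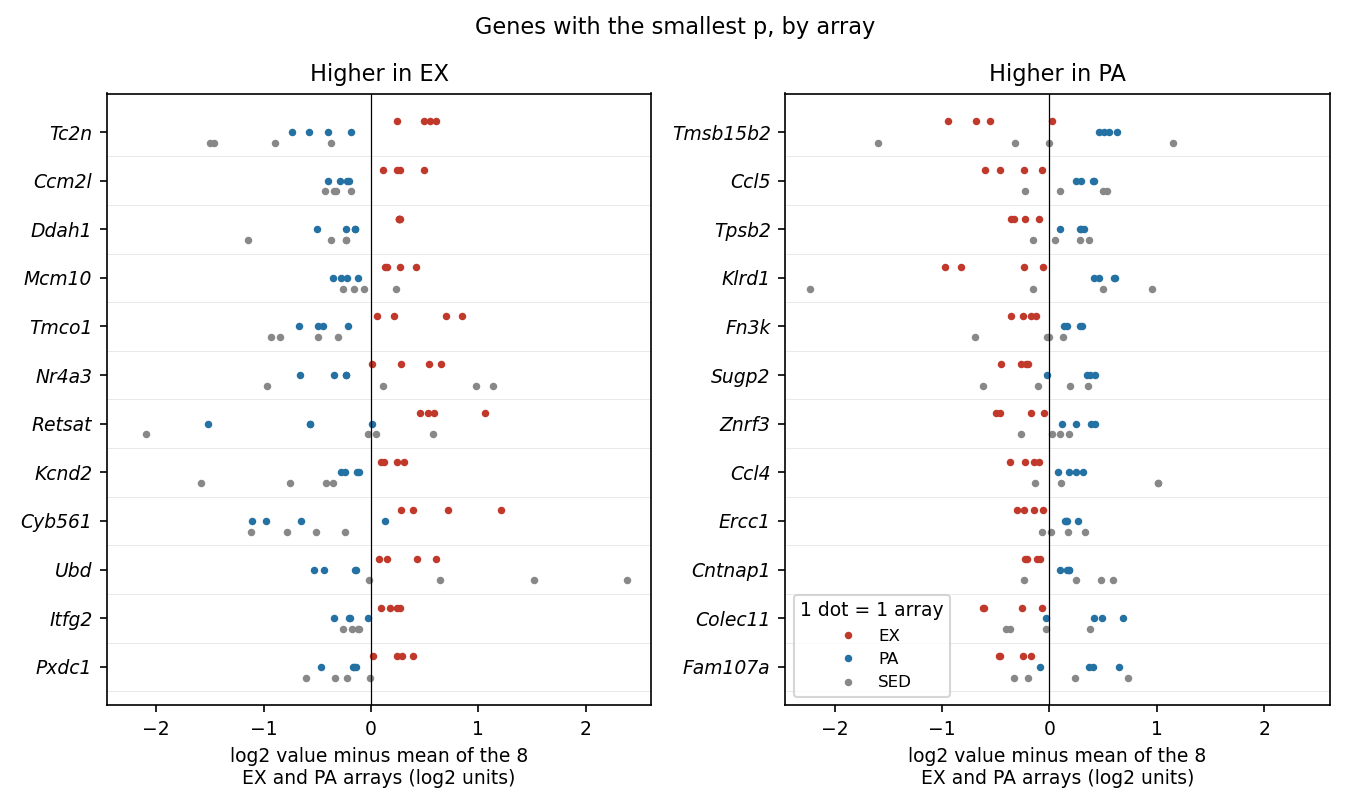
Level of each of the 24 genes of smallest p in every array (x axis, log2 level minus the gene's mean over the 8 EX and PA arrays), 1 dot per array with colours for EX, PA and SED. In each row the 4 EX dots and the 4 PA dots do not overlap, by the choice of genes, while the SED dots spread widely and reach into 1 or both groups for many genes.

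The chemokine gene Ccl5 was one of the 12 that were higher in PA. Ccl5, which T cells and natural killer cells release, read 6.86, 6.70, 6.33 and 6.47 in EX and 7.35, 7.34, 7.18 and 7.23 in PA. Its difference was -0.69 ± 0.12 (SE; adjusted p = 0.467 by limma), and SED read 6.71 to 7.47, across both. Klrd1, the CD94 receptor of natural killer cells, read 5.07, 5.22, 5.80 and 5.98 in EX and 6.64, 6.65, 6.46 and 6.50 in PA (difference -1.04 ± 0.20, SE). The PA arrays for Klrd1 were close together, while SED was wide, with 3.81 in SED 1, 5.89 in SED 2 and 6.54 in SED 4, and SED 3 above all PA arrays.

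Tpsb2, a tryptase of mast cells, read 5.07, 5.05, 5.31 and 5.18 in EX and 5.69, 5.50, 5.70 and 5.73 in PA (difference -0.50 ± 0.09, SE). The chemokine gene Ccl4 read 4.48 to 4.75 in EX and 4.93 to 5.16 in PA, a difference of -0.41 ± 0.09 (SE). Both were dim, and the Ccl4 levels in EX were under the filter. Colec11, a soluble lectin that starts the complement cascade, differed by -0.78 ± 0.18 (SE), with 4.87 to 5.42 in EX and 5.46 to 6.18 in PA.

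The largest difference of this direction was that of Tmsb15b2, a thymosin that binds actin monomers. It read 4.62, 4.89, 5.02 and 5.59 in EX and 6.08, 6.03, 6.12 and 6.20 in PA, a difference of -1.08 ± 0.18 (SE; adjusted p = 0.467 by limma). The PA arrays agreed closely, the EX arrays varied, and the SED arrays ran from 3.97 to 6.72, past both groups. Fn3k, the kinase that removes sugar adducts from proteins, read 8.41, 8.23, 8.34 and 8.46 in EX and 8.72, 8.87, 8.75 and 8.89 in PA (difference -0.45 ± 0.08, SE).

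The remaining genes of this direction had differences of like size. Znrf3, a ubiquitin ligase that removes Wnt receptors from the surface, differed by -0.59 ± 0.13 (SE). The RNA-binding protein gene Sugp2 differed by -0.57 ± 0.12, and its dimmer probe set by -0.36 ± 0.19 (SE). The DNA repair gene Ercc1 differed by -0.37 ± 0.08, the axon-glia contact gene Cntnap1 by -0.32 ± 0.07 and the stress-responsive gene Fam107a by -0.67 ± 0.15 (SE). For 10 of the 12 genes the SED mean lay between EX and PA, and for 2 it lay above both. These genes too were picked by their EX and PA levels, so the counts only describe them.

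Genes that mark cardiac load and contraction had small differences, with intervals that differ in width from gene to gene. For the atrial natriuretic peptide gene Nppa the arrays read 10.74, 10.22, 10.92 and 10.05 in EX and 10.86, 9.83, 10.21 and 10.68 in PA. Both groups covered the same range, the difference was 0.09, and its 95% interval ran from -0.51 to 0.68, which includes a 1.5-fold higher level in EX. Nppb, the brain natriuretic peptide gene, was narrower (interval -0.28 to 0.29).

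The alpha myosin gene Myh6, the fast adult motor, differed by 0.01 with an interval from -0.14 to 0.16. Its slow fetal counterpart Myh7 had 12.27 ± 0.21 in EX and 12.42 ± 0.05 in PA (SD, n = 4), a difference of -0.15 with an interval from -0.40 to 0.10. A dimmer Myh7 probe set differed by more, -0.42 ± 0.25 (SE; unadjusted p = 0.121 by limma). Atp2a2, the calcium pump of the sarcoplasmic reticulum, was bounded between -0.16 and 0.15 on its brightest probe set. Its dimmer probe sets differed by -0.01 ± 0.07, 0.06 ± 0.18 and 0.09 ± 0.12 (SE). A dimmer Myh6 probe set differed by 0.005 ± 0.19 (SE), so the narrow intervals given are those of the brightest probe sets. Of 19 hypertrophy and fetal-program genes 9 had a higher and 9 a lower mean in EX, and 0 passed an unadjusted p of 0.05 by limma.

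Of the contractile and calcium genes 0 had an adjusted p under 0.05 by limma. Of 20 sarcomere and Z-disc genes 15 had a lower mean in EX, with a list median of -0.03 against -0.02 for all genes tested. Of 19 calcium handling genes 15 had a lower mean, with a median of -0.05. S100a1, a calcium sensor that raises contractility, did not overlap between the groups, with 8.96 ± 0.17 in EX and 9.30 ± 0.16 in PA (SD, n = 4; difference -0.34 ± 0.12, SE; adjusted p = 0.888 by limma). Sarcolipin (Sln), a small inhibitor of the calcium pump that is abundant in atria, read 6.89, 6.65, 7.52 and 6.04 in EX and 6.28, 6.21, 6.21 and 5.55 in PA. It was highest in EX 3, the array with the most Myl7, and the part of atrial tissue in this difference was not tested. S100a1 and Sln were the 2 calcium handling genes at an unadjusted p under 0.05 by limma (10.5%, against 4.88% of all genes). Of that list only S100a1 did not overlap (5.26%, against 2.73% of all genes). Of 18 ion channel genes 6 had a higher and 12 a lower mean in EX. Kcnd2 was the only one of them at an unadjusted p under 0.05 by limma (5.56%, near the 4.88% of all genes).

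Energy metabolism genes had slightly lower means in EX in most cases, though none passed the test. Of 56 oxidative phosphorylation genes 48 had a lower mean in EX (median -0.06), as did 15 of 17 citric acid cycle genes (median -0.06), 26 of 31 genes of fatty acid uptake and oxidation (median -0.05) and 23 of 29 genes of glucose use (median -0.06). Over these 133 genes 112 were lower (84.2%), against 55.1% of all 10244 genes, and the median was -0.06 against -0.02. Only Pfkfb1 had an unadjusted p under 0.05 by limma, and it was higher in EX.

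The share of lower means varied with the arrays kept and the normalization. For oxidative phosphorylation the list level relative to the 8 arrays was -0.10, -0.04, 0.01 and 0.02 in EX 1 to EX 4, and 0.09, 0.01, -0.02 and 0.02 in PA 1 to PA 4. EX 1 was the lowest and PA 1 the highest, and EX 3 and EX 4 lay within the range of PA. Without EX 1, 100 of the 133 genes were lower (75.2%, median -0.03), against 55.4% of all genes. Without EX 2 alone 112 were lower (84.2%), and without any other single array 79.7% to 85.7%. Without EX 1 and EX 2 together, chosen after seeing the data, 84 were lower (63.2%, median -0.03), against 54.3% of all genes. With quantile normalization 102 were lower (76.7%, median -0.04), against 54.1%. EX 1 also had the largest Gapdh value of the 8 arrays for the 3' end less the 5' end, 1.35, and its part in the result was not tested.

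Single enzymes show how small the shift was. Citrate synthase (Cs), the entry to the citric acid cycle, had 11.59 ± 0.03 in EX and 11.68 ± 0.04 in PA (SD, n = 4), with no overlap and a difference of -0.10 ± 0.07 (SE). The catalytic subunit of succinate dehydrogenase (Sdha) differed by the same -0.10 ± 0.07 (SE), also without overlap. These 2 were the only ones of 17 citric acid cycle genes without overlap (11.8%), against 2.73% of all genes. Of 56 oxidative phosphorylation genes it was 1 (1.79%), and of the fatty acid and glucose lists 0. Ndufb6, a subunit of complex I, differed by -0.17 ± 0.09 (SE). Cpt2, which hands long-chain fatty acids to the mitochondrial matrix, had 10.40 ± 0.14 in EX and 10.59 ± 0.09 in PA (SD, n = 4), with overlapping arrays.

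Pfkfb1, which makes and degrades fructose 2,6-bisphosphate, the activator of glycolysis, ran against the rest of its list. It had 8.62 ± 0.33 in EX and 7.94 ± 0.30 in PA (SD, n = 4), a difference of 0.68 ± 0.19 (SE; adjusted p = 0.744 by limma). Its groups overlapped. The glucose transporter gene Slc2a1 had a higher mean in EX (0.23 ± 0.12, SE), while Pdk2, which switches off pyruvate oxidation, had a lower one (-0.19 ± 0.10, SE). Pdk4, the fasting-induced kinase of the same family, differed by 0.02 with a wide interval from -0.53 to 0.57.

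Regulators of mitochondrial formation were split. The PGC-1 family gene Pprc1 was higher in EX without overlap (7.85 ± 0.16 against 7.46 ± 0.21, SD, n = 4; adjusted p = 0.871 by limma), and Ppargc1b had a difference of 0.36 ± 0.18 (SE). Ppargc1a, the family member best known from exercised muscle, had 10.70 ± 0.06 in EX and 10.80 ± 0.09 in PA (SD, n = 4). On this brightest probe set its interval from -0.28 to 0.08 bounds any rise in EX below 1.2-fold. Its dimmer probe sets differed by -0.02 ± 0.11 and -0.03 ± 0.13 (SE), which bounds a rise less tightly. The mitochondrial RNA polymerase gene Polrmt differed by -0.40 ± 0.15 and the mitochondrial transcription factor gene Tfb1m by -0.28 ± 0.12 (SE). Of the 27 tested genes of the list 18 had a lower mean in EX, where 55.1% of all genes did. An unadjusted p under 0.05 by limma was reached by 2 (7.41%), against 4.88% of all genes. Pprc1 was the only gene of the list without overlap (3.7%, against 2.73% of all genes). The uncoupling protein gene Ucp3 was dim and variable, with an interval from -0.50 to 0.79.

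**Figure D4:**
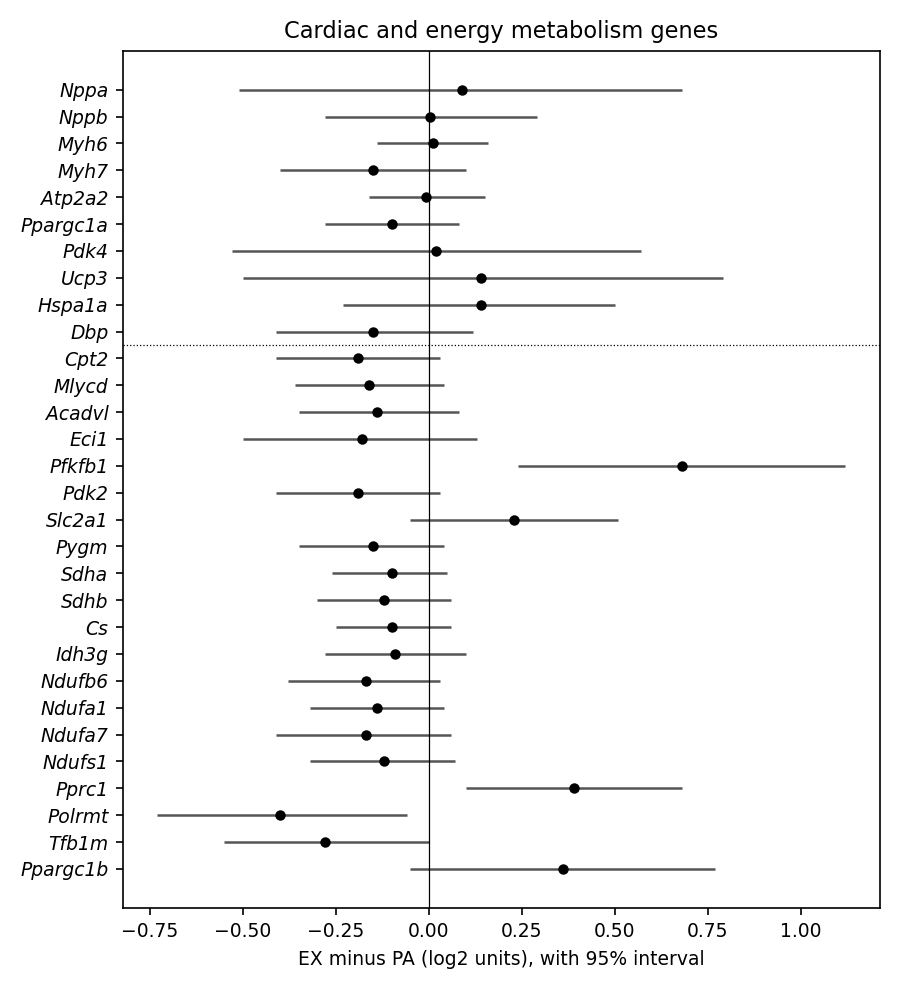
Difference between EX and PA (x axis, log2 units, dot) with its 95% limma interval (line) for the 10 cardiac and metabolic genes fixed by name (above the dotted line) and the 4 genes of smallest p from each of 5 energy lists (below it). Most intervals include 0, and those of Myh6 and Atp2a2 are narrow while those of Nppa, Pdk4 and Ucp3 are wide.

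Genes of defence against oxidants and misfolded proteins did not pass the adjusted threshold either. Of 33 antioxidant genes 25 had a lower mean in EX (median -0.05). The peroxidase gene of the secretory pathway Prdx4 was higher in EX by 0.29 ± 0.09 and the quinone reductase gene Nqo1 lower by -0.26 ± 0.10 (SE), with overlapping groups for both. Of 29 chaperone genes 15 had a higher and 14 a lower mean. Hspa2, a member of the Hsp70 family, had 9.53 ± 0.04 in EX and 9.33 ± 0.06 in PA without overlap, and the endoplasmic reticulum chaperone gene Hspa5 had 10.97 ± 0.04 and 11.14 ± 0.08, also without overlap (SD, n = 4). They made up 6.9% of the chaperone list, against 2.73% of all genes, and went in opposite directions. For Hspa1a, the stress-inducible Hsp70 gene that acute exercise raises in rat heart, the difference was 0.14 with an interval from -0.23 to 0.50.

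Growth, vessel and matrix lists had medians near 0. Of 26 insulin and growth signalling genes 12 had a higher mean in EX, of 25 endothelial genes 12, and of 39 matrix genes 23. The VEGF receptor gene Flt1 had a difference of -0.35 ± 0.13 (SE), but its dimmer probe sets gave -0.05 and -0.09. Foxo3, a transcription factor of atrophy and autophagy, differed by -0.25 ± 0.11 (SE). Adcy6, the main adenylyl cyclase of heart muscle cells, had 7.34 ± 0.05 in EX and 7.53 ± 0.15 in PA without overlap (SD, n = 4), and Npr3, the clearance receptor of natriuretic peptides, differed by 0.41 ± 0.18 (SE). None of these had an adjusted p under 0.888 by limma. On the adrenergic and natriuretic signalling list, which holds Adcy6, 8% of genes did not overlap, against 2.73% of all genes.

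Genes that follow the time of day or recent arousal were covered by 3 lists. Of 19 clock genes 13 had a higher mean in EX (median 0.04). Bmal1, the core activator of the clock, had a difference of 0.35 ± 0.20, and its repressor gene Nr1d1 one of -0.22 ± 0.12 (SE), while the clock output gene Dbp had an interval from -0.41 to 0.12. Among 23 immediate early genes 12 had a higher mean in EX. Besides Nr4a3, the mRNA decay factor gene Zfp36 did not overlap (-0.23 ± 0.09, SE), nor did Ier3 (-0.15 ± 0.07, SE). These made up 13% of the list, against 2.73% of all genes, with Nr4a3 higher and the others lower in EX. An unadjusted p under 0.05 by limma was reached by 2 (8.7%), against 4.88% of all genes. Of 17 glucocorticoid-responsive genes 11 had a higher mean in EX, and 0 had an unadjusted p under 0.05 by limma.

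Cells other than heart muscle were assessed by their markers. Of 28 leukocyte genes 20 had a lower and 8 a higher mean in EX, where 55.1% of all genes had a lower one. The median was -0.11, against -0.02 over all genes. An unadjusted p under 0.05 by limma was reached by 2 (7.14%), against 4.88% of all genes. The groups did not overlap for 1 (3.57%), against 2.73% of all genes. The pan-leukocyte gene Ptprc had 7.74 ± 0.24 in EX and 8.28 ± 0.31 in PA (SD, n = 4; difference -0.54 ± 0.17, SE; adjusted p = 0.854 by limma), and the leukocyte integrin gene Itgb2 had 5.95 ± 0.16 and 6.34 ± 0.29 without overlap. Of the list's 4 genes of smallest p, C1qb was also lower (-0.24 ± 0.14, SE). Cd52 was higher in EX (0.45 ± 0.25, SE), and both genes had overlapping groups. The list level was -0.09, -0.12, -0.07 and 0.07 in EX 1 to EX 4 and 0.24, -0.01, -0.07 and 0.05 in PA 1 to PA 4, so the groups overlapped and PA 1 was the highest. These levels stood beside the lower Ccl5, Klrd1 and Tpsb2 in EX, and their part in them was not tested.

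Of 7 tested genes of mast cells and blood cells 5 had a lower mean in EX (median -0.13), with list levels from -0.34 to 0.14 in EX and -0.15 to 0.32 in PA. Without EX 1 the median was -0.35. The neutrophil gene S100a8 varied most, from 4.25 to 7.14 in EX and 5.72 to 7.36 in PA. On the inflammation list 15 of 29 genes had a higher and 13 a lower mean in EX (median 0.03), and 6.9% did not overlap, against 2.73% of all genes. Its member Stat2, a carrier of interferon signals, was higher in EX without overlap by 0.40 ± 0.13 (SE), but its dimmer probe set differed by -0.14. The adipocyte, smooth muscle, skeletal muscle and epicardial lists held 6 to 11 tested genes each and no gene at an unadjusted p under 0.05 by limma. With so few genes, that does not set these lists apart from the 4.88% over all genes. At the same threshold the atrial list had 2 of 13 genes (15.4%), Myl4 and Sln. The mast and blood cell list had 1 of 7 (14.3%), Tpsb2.

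Over the 31 lists with at least 5 tested members, medians ran from -0.13 to 0.04, and 28 lay within 0.1 of 0. By limma 0 of 692 list entries had an adjusted p under 0.05, and 23 (3.32%) had an unadjusted p under 0.05, a smaller share than the 4.88% over all genes tested.

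**Figure D5:**
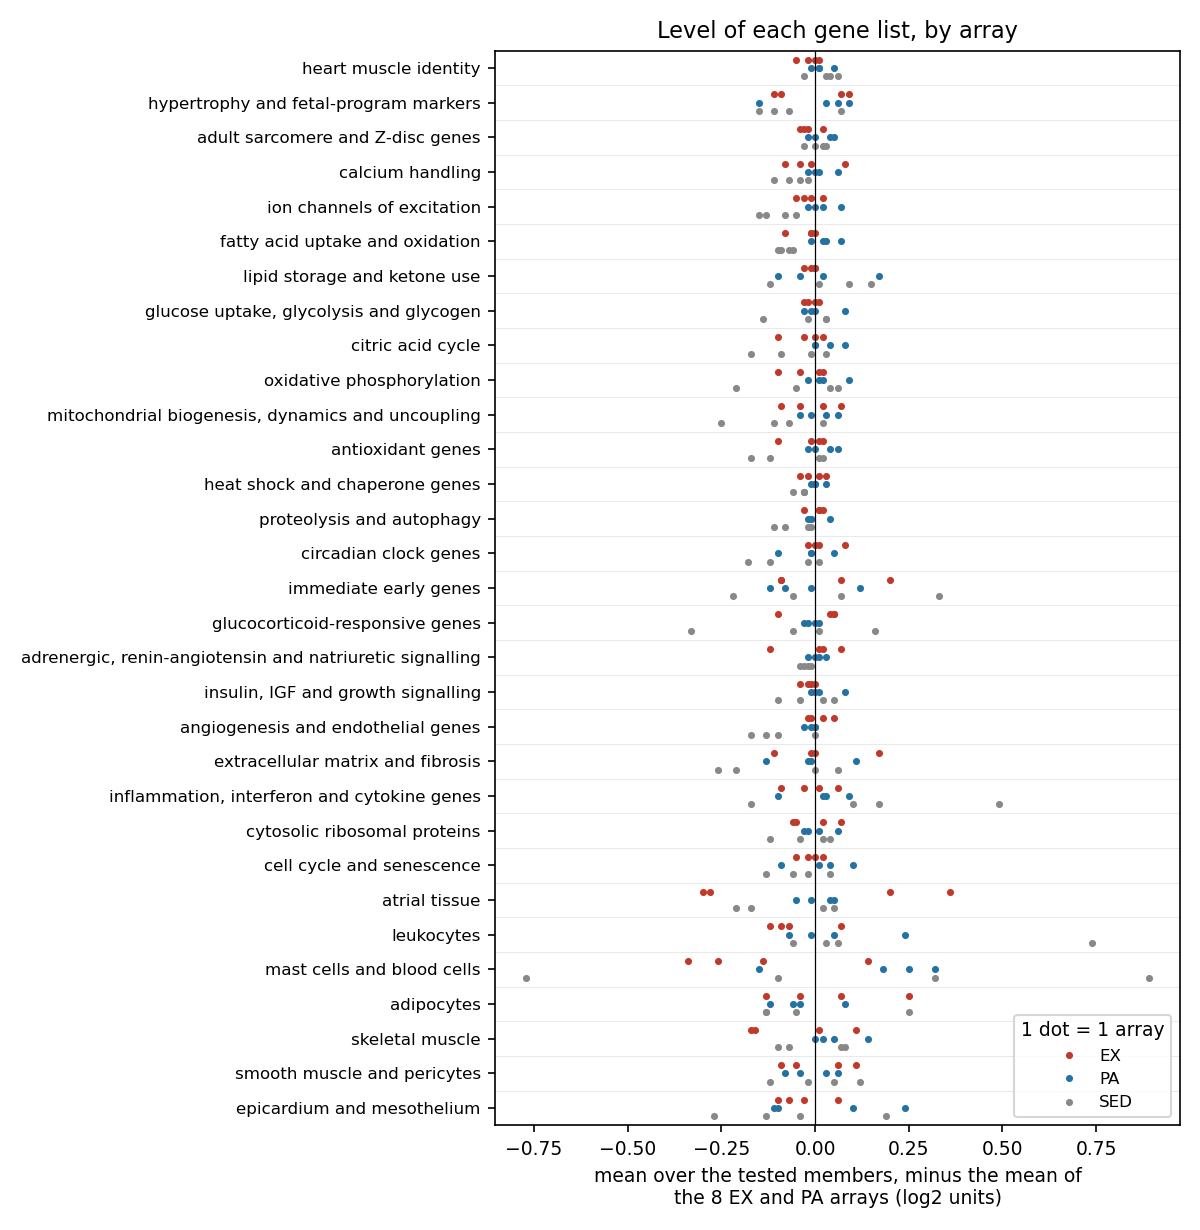
Level of each gene list in every array (x axis, mean log2 level of the tested members minus the mean of the 8 EX and PA arrays), 1 dot per array with colours for EX, PA and SED. EX and PA dots overlap or touch in nearly all lists, and the widest spread is that of SED in the mast cell and blood cell list. The EX dots of the atrial list, whose mean includes the widely varying Myl7, lie at -0.30, -0.28, 0.20 and 0.36.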

How the data were processed

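Left ventricle RNA, 6 µg per array, was hybridised to Affymetrix rat arrays, per the labels' protocols. The authors deposited log2 values of 12 arrays in a table of 31099 rows. Both MAS5 and RMA are named in the submitters' processing notes, and which was used is not given there. The background correction is thus unknown, and those methods treat dim probe sets differently. Values were used as deposited. The 57 control rows were left out, and probe sets in the upper 60% by mean over the 12 arrays were tested. Of 31042 probe sets, 20826 had 1 symbol in GEO's platform annotation, 436 several and 9780 none listed. Only those with 1 symbol were named.

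EX and PA were compared with limma 3.58.1 in R 4.3.3 over their 8 arrays alone, with moderated two-sided tests, Benjamini-Hochberg adjustment over 18626 probe sets and a threshold of 0.05. The same fit gave the standard errors and 95% intervals. The steps were tested on simulated data. Plots were made in Python 3.11.15 with matplotlib 3.10.9.

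The comparison, the gene lists and the rule for named genes were chosen with earlier results of these data known. The rule names the 12 genes of smallest p in each direction, up to 4 genes of smallest p per list, and 10 genes whatever their values: Myh6, Nppa, Dbp, Myh7, Nppb, Hspa1a, Atp2a2, Ucp3, Ppargc1a and Pdk4. Myl7, of the atrial markers, was singled out after its values were seen, as were the marker levels of Myl2, Irx4, Adipoq, Plin1, Lep and Th, which come from the fixed marker list. Alternatives were other normalizations, filters, variance models, fits and probe set rules, and leaving out each array. A number of arrays this small limits the precision of every value.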

Additional observations from a re-analysis of the deposited data

Results flagged for a closer look

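Among 130 groups of 4 arrays, formed by 34 genes and 31 list levels, 7 held an array that stood far from the other 3 by Dixon's 95% limit. Chance alone gives about 1 in 20, or 6, so the number as a whole is near what chance gives.

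Of the genes, Ddah1 read 8.18 in EX 1 against 8.17 in the other EX arrays, which is 1 step of the deposited rounding. Pxdc1 read 9.39 in PA 1 against 9.68 to 9.71 in the other PA arrays. Ercc1 read 7.76 in PA 3 against 7.64 to 7.66.

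Of the list levels, EX 1 was the lowest for fatty acid uptake and oxidation at -0.08 and for glucocorticoid-responsive genes at -0.10, where the other EX arrays were at 0.04 to 0.05. PA 3 was the highest for chaperone genes at 0.03, and PA 4 for insulin and growth signalling at 0.08.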

How the results depend on the processing

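Under every alternative run, 0 probe sets had an adjusted p under 0.05 by limma, as was so with a threshold of 0.1 or a minimum of 1.2-fold in the fit reported. The smallest adjusted p ran from 0.07 (without EX 4) to 0.654 (without PA 4). The count at an unadjusted p under 0.05 was 998 as reported, 534 in a fit over all 12 arrays and 1534 of 31042 without a filter, and 857 to 1245 when 1 array was left out. Without EX 2, 776 of the 1245 were higher in EX, and without EX 1 and EX 2 together, chosen after seeing the data, 715 of 1099, against 493 of 998. Genes without overlap numbered 483 to 699 with 1 array left out and 1164 without both, since fewer arrays overlap less by construction. With the replicate number as a block, 0 probe sets passed the adjusted threshold and 1018 the unadjusted one. Same-numbered EX and PA arrays did not deviate together (r = -0.125, 0.123, -0.105 and 0.0682), so the numbers were not taken as pairs.

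Of 147 named genes 136 kept their sign under every alternative run on them, and 1 of the 24 genes of smallest p did not. With probe sets averaged, Pxdc1 was at -0.14, Atg5 at -0.07, Rps6kb1 at 0.01 and Atp2a2 at 0.03. Atp2a2 was at 0.01 with quantile normalization and with cyclic loess, and Nppb at -0.0075 with median centring. Without EX 1 and EX 2, Hspb7 was at -0.01 and Hspa1a at -0.07. With 1 array left out, the values crossed 0 for Nppb (-0.09 to 0.10), Nppa (-0.10 to 0.24), Pdk4 (-0.12 to 0.20), Ucp3 (-0.01 to 0.36), Atp2a2 (-0.02 to 0.0092) and Sult1a1 (-0.28 to 0.04). The cause was not tested. As reported, these genes had an unadjusted p above 0.05 by limma, other than Pxdc1.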

Other observations

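Natural killer and T cell genes were looked at after Klrd1, Ccl5 and Ccl4 were seen among the genes of smallest p, so the list was chosen with their values known and carries no test. Of 30 such genes 13 were tested, and 10 of these had a lower mean in EX, where 55.1% of all genes did. The median was -0.11, against -0.02 over all genes. The count and the median include Klrd1, Ccl5 and Ccl4 themselves. Besides Klrd1, Ccl5 and Ccl4, the chemokine gene Ccl3 had an unadjusted p under 0.05 by limma (5.10 to 5.34 in EX and 5.29 to 5.58 in PA). Apart from Klrd1, Ccl5 and Ccl4, the tested genes of the list overlapped between the groups. The share at an unadjusted p under 0.05 by limma was 30.8%, against 4.88% of all genes. The share without overlap was 23.1%, against 2.73%. The genes that prompted the list make up all of the second share and all but Ccl3 of the first, so neither is evidence about these cells. The cytotoxic granule gene Nkg7 differed by -0.10, the interleukin 2 receptor gene Il2rb by 0.10, the T cell receptor chain genes Cd3e and Cd3g by -0.09 and -0.11, and Cd8a by -0.20. The granzyme and perforin genes on the list were below the filter.

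Of the 24 probe sets of smallest p, 11 (45.8%) had no single symbol in the annotation, against 4882 (26.2%) of the 18626 tested. No test of that share was made. The smallest p of all was that of probe set 1391048_at, which read 6.39, 6.19, 6.83 and 6.56 in EX and 5.32, 4.84, 5.04 and 5.29 in PA, a difference of 1.37 ± 0.16 (SE; adjusted p = 0.22 by limma). It was chosen after its values were seen, and its SED arrays read 5.25, 6.33, 6.33 and 5.79.

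The skeletal muscle myosin gene Myh1 read 12.68 to 12.78 over the 8 arrays, as bright as cardiac myosin genes, while Myh2 and Myh4 of the same family were below the filter. The mesothelial gene Wt1 read 10.24 to 10.55, while Msln was below the filter. Whether these probe sets measure the genes that the annotation names was not tested.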
